A study of Arabidopsis thaliana and Ginkgo biloba and Brassica rapa with 13 samples.

Results

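The chloroplast 23S ribosomal RNA (rRNA) carried 3 of the 16 cytosine positions listed for rRNA in the percentages table of the series. They were taken as every position listed under the name Chloroplast-23S rRNA, together with the chloroplast 23S reference of each species. Positions are counted from 1 at the 5′ end of the Arabidopsis thaliana reference, and the members are C1887, C1940 and C1977. RNA bisulfite sequencing (RBS-seq) deaminates cytosine and spares 5-methylcytosine (m5C). The measurement is therefore the percentage of reads that still show cytosine at a position, called the methylation level below. Other modified cytosines can resist conversion too, so the paper treats its sites as candidates for m5C. The series covers 6 species, all wild type, from whose total RNA 8 RBS-seq and 5 RNA-seq libraries were made. A. thaliana was sampled as seedlings 10 days after germination, in 3 RBS-seq libraries that enter the table as the authors' mean. The other 5 species had 1 RBS-seq library each: flag leaf of the wheat Triticum durum, fronds of the green macroalga Caulerpa taxifolia, cultured cells of the unicellular alga Nannochloropsis oculata, and Brassica rapa and Ginkgo biloba. For B. rapa and G. biloba the labels say leaf and the methods of the study say shoot apex. Species and tissue cannot be told apart, read depth does not accompany the percentages, and no replicate error can be attached to a single value.

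Chloroplasts translate their own genome on ribosomes of the bacterial type. The 23S rRNA forms most of the large subunit of these ribosomes, including the peptidyl transferase centre, and also the face that meets the small subunit. Bacterial 23S rRNA is known to carry m5C, which in Escherichia coli is placed by the methyltransferase RlmI, whereas nuclear and many organellar m5C sites are placed by enzymes of the NOP2/NSUN family. The mitochondrial 26S and the nuclear 25S rRNAs are the counterparts of the 23S rRNA in the other compartments of a plant cell.

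C1940 and C1977 lie 37 bases apart, and the stretch that holds them is shown first because the sharing of the sites between species and compartments is read from it. Sequences are those deposited as rRNA references, written 5′ to 3′ as DNA, with the listed cytosines in capitals and 25 bases outside the outer sites. The same 88 bases are found in A. thaliana, B. rapa, T. durum and G. biloba. The references of B. rapa, T. durum and C. taxifolia are RNA-seq consensus sequences built on a guide reference. Their identity to other references may therefore come partly from the guide. The lines for C. taxifolia and for the A. thaliana mitochondrial 26S rRNA follow for comparison.
A. thaliana chloroplast 23S: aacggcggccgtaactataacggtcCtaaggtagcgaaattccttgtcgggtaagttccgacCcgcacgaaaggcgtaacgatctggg
C. taxifolia chloroplast 23S: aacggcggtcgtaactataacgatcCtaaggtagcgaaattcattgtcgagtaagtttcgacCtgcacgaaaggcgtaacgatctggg
A. thaliana mitochondrial 26S: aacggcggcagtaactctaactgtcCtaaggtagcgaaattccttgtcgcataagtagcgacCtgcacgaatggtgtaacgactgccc

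C. taxifolia differed from A. thaliana at 6 of the 88 bases (93.2% identity), and none of the differences fell on a listed cytosine. They were C1923T, G1937A, C1957A, G1964A, C1972T and C1978T, with the A. thaliana base first. N. oculata differed at 2 bases (97.7% identity), C1998T and G2002A, both downstream of C1977. The mitochondrial 26S rRNA of A. thaliana differed from its chloroplast 23S rRNA at 16 of the 88 bases (81.8% identity) and also has a cytosine at both sites.

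In the chloroplast genome of the TAIR10.1 assembly, the A. thaliana reference matched exactly in both copies of the inverted repeat. One copy is the 23S rRNA gene ArthCr087, from 104691 to 107500 on the plus strand, and the other is ArthCr089, from 131149 to 133958 on the minus strand. C1940 lies at 106630 and 132019, C1977 at 106667 and 131982, and the position of C1887 at 106577 and 132072. All lie within the non-coding rRNA gene itself. The 41 bases centred on each position occurred 2 times in the chloroplast genome and 0 times in the nuclear or mitochondrial assembly, both as listed and with every cytosine read as thymine.

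Both C1940 and C1977 had a high percentage of unconverted cytosine in every species. At C1940 the methylation level was 70% in A. thaliana, 83% in B. rapa, 88% in T. durum, 73% in C. taxifolia, 81% in N. oculata and 85% in G. biloba. A. thaliana and C. taxifolia were the low pair and T. durum was highest, with a median of 82% and a mean of 80% ± 7.04 (SD over 6 species). At C1977 the level was 82% in A. thaliana, 90% in B. rapa, 91% in T. durum, 90% in C. taxifolia, 88% in N. oculata and 90% in G. biloba. A. thaliana was again lowest, while the other 5 species lay within 88% to 91%. The median was 90% and the mean 88.5% ± 3.33 (SD over 6 species). B. rapa, C. taxifolia and G. biloba were equal at C1977, and no difference between neighbours in either order could be tested with 1 value per species.

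The species ranged over 18 percentage points at C1940 and over 9 at C1977. Among the shared sites of other rRNAs the narrowest range was 4 points at nuclear 25S C2860 and the widest was 56 points at chloroplast 16S C916. C1977 was at or above 80% in 6 of 6 species, and C1940 in 4 of 6.

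**Figure D1:**
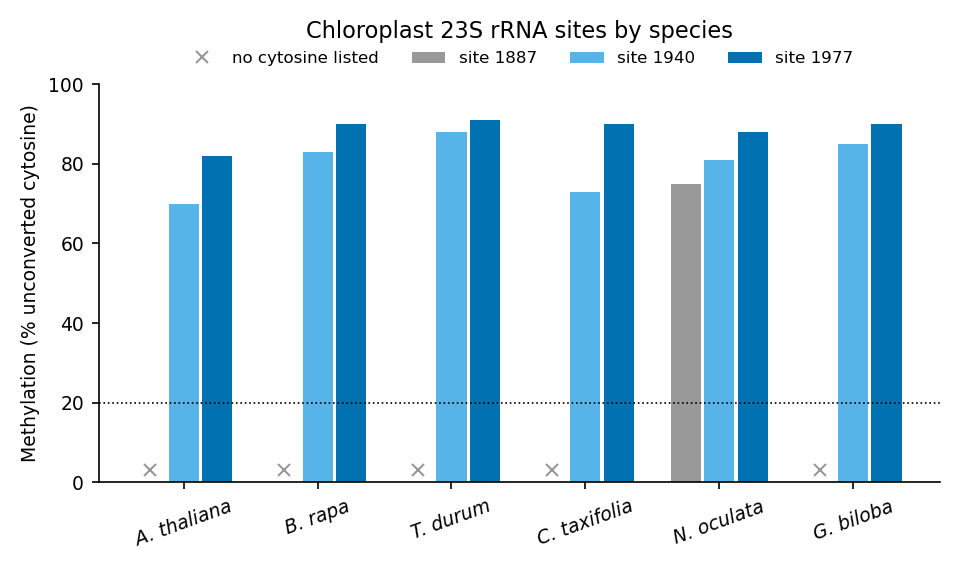
Percent methylation (vertical axis) at the 3 chloroplast 23S positions in each of 6 species; bars are single deposited values (A. thaliana, a mean of 3 libraries), crosses mark species with no cytosine listed, and the dotted line is the 20% at which sites were called. C1977 stands above C1940 in each species, and the position 1887 has a bar, of 75%, in N. oculata alone.

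The 3 positions and 6 species give 18 entries, of which 13 were percentages, from 70% to 91% with a median of 85%, and 5 were base letters. Of the 13 percentages, 13 were at or above the calling threshold of 20%, against 70.3% of all 74 percentages in the table. A position entered the table because it was called in at least 1 species, so this count is partly fixed by how the table was made. The 39 called percentages of other rRNAs ran from 28% to 93% with a median of 78%. At the shared sites of other rRNAs the 24 percentages ran from 31% to 93% with a median of 82%. Of the 3 chloroplast 23S positions, 2 were at or above 20% in all 6 species, against 37.5% of the 16 listed sites.

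The listed sites are a small part of the cytosines of this rRNA. The references hold between 519 cytosines, in C. taxifolia, and 677, in T. durum, and the called sites were 0.295% to 0.499% of them. The 88 bases shown above hold 22 cytosines in A. thaliana, of which 20 were not listed. A cytosine stood at 17 of the 22 positions in all 6 species, and 15 of these were not listed. In A. thaliana a cytosine that was not listed stands directly next to C1940 on its 5′ side and next to C1977 on both sides. The 3′ neighbour of C1977 is T in C. taxifolia (C1978T). Cytosines that were not listed have no percentage here, so their levels are only known not to have been called.

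The bases next to the sites were compared with the rest of the reference. The references of B. rapa and G. biloba are identical, so these species are not separate cases here. The 5 bases centred on C1940 occurred once in the 23S references of A. thaliana, B. rapa, T. durum and G. biloba, but at 2 further places in C. taxifolia and at 3 in N. oculata. The 5 bases centred on C1977 occurred at 4 further places in A. thaliana and at 5 in B. rapa, T. durum and G. biloba. C. taxifolia lacks these 5 bases at the site itself, because of C1978T, and holds them at 2 other places. None of the cytosines at the further places in A. thaliana was listed as called.

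The first comparison asked whether the levels of the shared sites differed within a species. C1977 was above C1940 in 6 of 6 species. The difference was 12 percentage points in A. thaliana, 7 in B. rapa, 3 in T. durum, 17 in C. taxifolia, 7 in N. oculata and 5 in G. biloba. Its mean was 8.50 ± 5.13 points (SD, n = 6 species, exact two-sided sign-flip permutation test, p = 0.0312, the smallest p that 6 species allow). After Benjamini-Hochberg adjustment over the 5 comparisons made here, the exact permutation p was 0.156, and the difference did not pass the threshold of 0.05. With 6 species and 5 comparisons, a comparison that alone has the smallest p cannot pass after adjustment, so the adjusted result was fixed by the design and says nothing about stability. Each species contributes 1 library or 1 mean, so the p takes species as units. It holds no spread between replicates and takes no account of how the species are related. At this smallest value it reflects only that all 6 differences have the same sign. Called percentages are whole numbers, so each carries a rounding of up to 0.5 points.

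**Figure D2:**
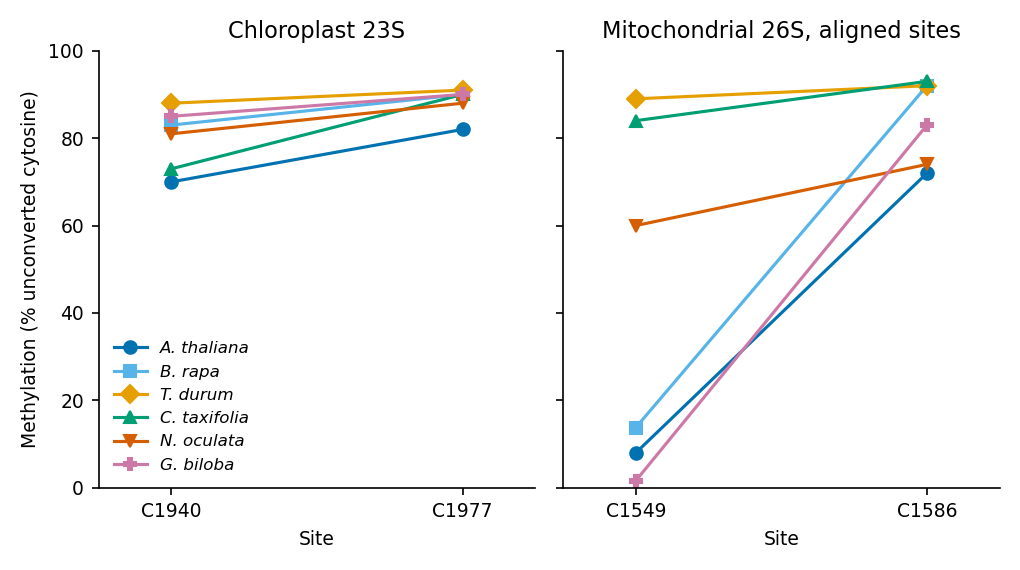
Percent methylation at C1940 and C1977 of the chloroplast 23S rRNA (left) and at the aligned C1549 and C1586 of the mitochondrial 26S rRNA (right), with 1 line per species. Chloroplast lines lie within 70% to 91% and all rise from left to right, whereas C1549 runs from 1.63% to 89%.

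The second question was whether the counterparts of the sites in the mitochondrial 26S rRNA had similar levels. C1940 aligned with mitochondrial C1549 and C1977 with C1586, which are 37 bases apart as well. C1940 was the higher of its pair by 62 points in A. thaliana (70% and 8%), 69.2 in B. rapa (83% and 13.8%), 21 in N. oculata (81% and 60%) and 83.4 in G. biloba (85% and 1.63%). It was 1 point below C1549 in T. durum and 11 points below in C. taxifolia, where C1549 was at 89% and 84%. The mean difference was 37.3 ± 39.5 points (SD, n = 6 species, exact two-sided permutation p = 0.125, adjusted p = 0.208). The species ranged over 18 points at C1940 and over 87.4 points at C1549.

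C1977 and mitochondrial C1586 were both high in every species. C1977 was above C1586 by 10 points in A. thaliana, 14 in N. oculata and 7 in G. biloba, and below it by 2 in B. rapa, 1 in T. durum and 3 in C. taxifolia. The mean difference was 4.17 ± 7.14 points (SD, n = 6 species, exact two-sided permutation p = 0.25, adjusted p = 0.25), with 3 species in each direction. Without N. oculata the mean difference was 2.2 points.

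The chloroplast and mitochondrial references of a species share sequence around these sites. Through C1940 the exact shared run was 27 bases in A. thaliana, B. rapa and G. biloba, where the chloroplast site was between 70% and 85% and the mitochondrial one between 1.63% and 13.8%. It was 19 bases in C. taxifolia and 7 in N. oculata. In T. durum the run was 178 bases and covered both sites. Through C1977 the exact shared run was 5 bases in A. thaliana, B. rapa and G. biloba, 20 in C. taxifolia and 36 in N. oculata. The authors mapped RBS-seq reads to references with every cytosine read as thymine. In that form it was 13 bases in A. thaliana, B. rapa and G. biloba, 37 in C. taxifolia and 44 in N. oculata. Through C1940 the run changed only in T. durum, to 179 bases. Reads that lie inside such a run fit both rRNAs, so the chloroplast and mitochondrial percentages of T. durum may not be separate measurements. T. durum is still counted in both mitochondrial comparisons above. Without T. durum the mean difference was 44.9 points for C1940 against C1549 and 5.2 for C1977 against C1586. The part of this shared sequence in the percentages was not tested.

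The nuclear 25S rRNA, which carries the other pair of shared sites, is methylated elsewhere. The 25S bases aligned with C1940 and C1977 are T at 2258 and G at 2295. Nuclear C2268, placed by NSUN5 in A. thaliana, falls 10 bases downstream of C1940 in the alignment, on a chloroplast G at 1950. C2860 falls 579 bases downstream of C1940, on a chloroplast C at 2519 that was not listed as a site. The nuclear sequence around C2268, with that cytosine in capitals, is given to set beside the chloroplast line above, with which it shares the bases just before C2268.
A. thaliana nuclear 25S: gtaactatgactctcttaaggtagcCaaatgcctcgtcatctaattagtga

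In level the pairs were close. The mean of C1940 and C1977 was above that of C2268 and C2860 by 2 points in A. thaliana, 6.5 in B. rapa, 3 in T. durum, 2 in N. oculata and 7 in G. biloba, and below it by 1 point in C. taxifolia. The mean difference was 3.25 ± 3.03 points (SD, n = 6 species, exact two-sided permutation p = 0.0625, adjusted p = 0.156) and did not pass the threshold.

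Chloroplast 16S rRNA, of the small subunit, carries C916, the other shared site of this organelle. The 23S pair was above C916 by 55.5 points in B. rapa, 38.5 in C. taxifolia, 13.5 in T. durum and 3.5 in G. biloba. It was below C916 by 5 points in A. thaliana and 2.5 in N. oculata. The mean difference was 17.2 ± 24.5 points (SD, n = 6 species, exact two-sided permutation p = 0.188, adjusted p = 0.234) and fell within the spread between species. Without B. rapa the mean difference was 9.60 points. On the percentage scale, 1 of the 5 comparisons had an unadjusted exact permutation p under 0.05 and 0 passed after adjustment.

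**Figure D3:**
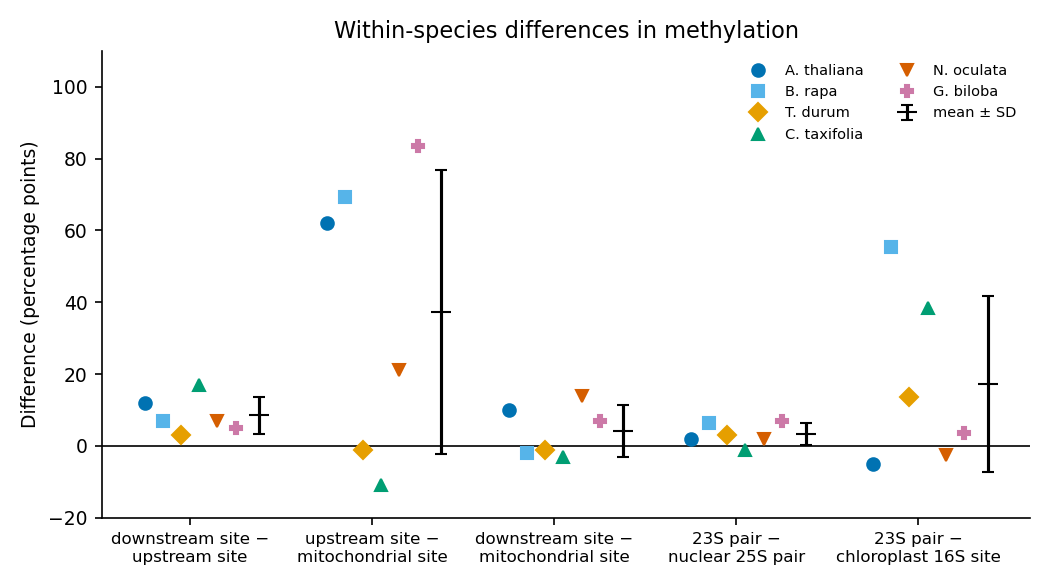
Within-species differences in percentage points (vertical axis) for the 5 comparisons, with 1 symbol per species and the mean ± SD over 6 species in black. Differences between C1977 and C1940 are all above 0, from 3 to 17 points, whereas the comparisons with mitochondrial C1549 and chloroplast C916 spread over more than 50 points.

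Sequence around the shared sites was next compared between species. The whole 23S references were 96.4% identical to A. thaliana in B. rapa and G. biloba, 93.8% in T. durum, 73.9% in N. oculata and 67.6% in C. taxifolia. Gaps counted as differences, and the references run from 2515 bases in C. taxifolia to 2950 in N. oculata. These values can therefore also reflect how much of the rRNA each reference holds. The B. rapa reference was identical to that of G. biloba over 2801 bases, although a length of 2810 bases is listed for it, so its sequence is suspect and adds nothing independent. Over the 88 bases around C1940 and C1977 it also equals A. thaliana and T. durum.

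Within 10 bases on each side, identity to A. thaliana averaged 99.0% ± 2.24 (SD over 5 species) at C1940 and 98.0% ± 4.47 at C1977, against a median of 92.0% over 650 cytosines of the A. thaliana reference. These values count the sequence shared by B. rapa and G. biloba under both names, and without B. rapa they were 98.8% ± 2.5 and 97.5% ± 5 (SD over 4 species), against a median of 90%. In that window only C. taxifolia differed, by 1 base at C1940 (G1937A) and by 2 at C1977 (C1972T and C1978T). Of the 650 cytosines, 69 (10.6%) had flanks at least as similar as C1940 and 120 (18.5%) as C1977. High flank identity was therefore shared with many cytosines that were not listed. C. taxifolia, with changes next to both sites, had 73% at C1940 and 90% at C1977, inside the range of the other species at both.

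The position of C1887 lies 53 bases upstream of C1940 and was listed as a site in N. oculata alone, at 75%. This was below the 81% at C1940 and the 88% at C1977 in the same library. For C. taxifolia and the 4 land plants the base A was listed. The land plants and C. taxifolia are shown over 51 bases to give the context of that A, in capitals.
A. thaliana around position 1887: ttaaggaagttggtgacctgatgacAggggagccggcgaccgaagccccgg
G. biloba around position 1887: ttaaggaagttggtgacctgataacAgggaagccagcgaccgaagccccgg
T. durum around position 1887: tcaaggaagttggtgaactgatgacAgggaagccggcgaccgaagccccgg
C. taxifolia around position 1887: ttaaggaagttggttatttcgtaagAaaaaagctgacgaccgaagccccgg

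The aligned references had A at this position in those 5 species, and the B. rapa line equals that of G. biloba. In the N. oculata reference the aligned base, at its position 1910, was also A, so the listed percentage and the reference did not match. The base implied by the table equalled the aligned base in the other 17 of the 18 entries. The nearest N. oculata cytosine lay 2 bases downstream, and 4 cytosines lay within 10 bases. With a pairwise alignment the position moved to 1913 and the nearest cytosine was 1 base away. Which N. oculata cytosine the 75% belongs to cannot be settled from the references.

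Flanks at C1887 were far less alike than those of the shared sites. Identity within 10 bases averaged 66.0% ± 28.6 (SD over 5 species), with 30% in N. oculata, 40% in C. taxifolia, 85% in B. rapa and G. biloba and 90% in T. durum. Of the 650 cytosines of A. thaliana, 629 had flanks at least as similar. In N. oculata 20 of the 50 flanking bases differed, 4 of them as the gap G1876del, A1877del, C1878del and C1879del. The alignment of single bases is therefore uncertain here, whereas C1940 and C1977 aligned to the same cytosines by both methods.

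**Figure D4:**
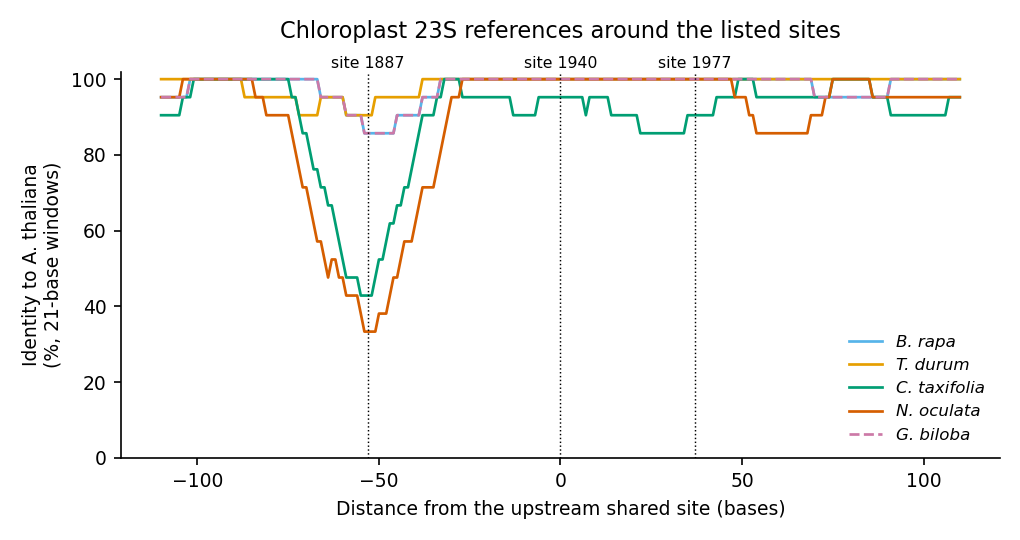
Identity to A. thaliana in windows of 21 bases (vertical axis, %) against distance from C1940 in bases, with 1 line per species and dotted lines at the 3 positions. All species stay at or above 85.7% around C1940 and C1977, and identity falls to 33.3% in N. oculata and 42.9% in C. taxifolia at the position of C1887.

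Base pairing was predicted from sequence alone, as a description of where the sites may lie in the fold. On whole references at 37 C, the pairing probability at C1940 was 0.662 in A. thaliana, 0.319 in T. durum, 0.230 in C. taxifolia, 0.460 in N. oculata and 0.237 for the sequence shared by B. rapa and G. biloba. C1940 was thus at or above 0.5 in 1 of 6 species. At C1977 the probability was 0.493 in A. thaliana, 0.830 in T. durum, 0.947 in C. taxifolia, 0.690 in N. oculata and 0.812 for the shared B. rapa and G. biloba sequence, and 5 of 6 species were at or above 0.5. C1977 had the higher probability in every species but A. thaliana. The counts out of 6 species, here and below, take the sequence shared by B. rapa and G. biloba under both names. The median over all cytosines of a reference ran from 0.911 to 0.951, so that both sites were below the median in each species, except C1977 of C. taxifolia.

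Folding 100 bases on each side of a site gave 0.220 to 0.319 at C1940 and 0.729 to 0.929 at C1977, with C1977 the higher in all species including A. thaliana. At 70 C, C1940 was at or above 0.5 in 1 of 6 species and C1977 in 4 of 6. At that temperature C1977 was above the cytosine median in the shared B. rapa and G. biloba sequence (0.904 against 0.724). C1940 was above it in N. oculata (0.697 against 0.674), so the position relative to the median depends on the folding setting. C1977, the site with the higher percentage in each species, also had the higher predicted probability, except on the whole reference of A. thaliana at 37 C and of N. oculata at 70 C, where C1940 was higher (0.697 against 0.602 in N. oculata). For another rRNA of T. durum, the paper proposes that strong secondary structure may have left cytosines unconverted. The part of pairing in the percentages was not tested.

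**Figure D5:**
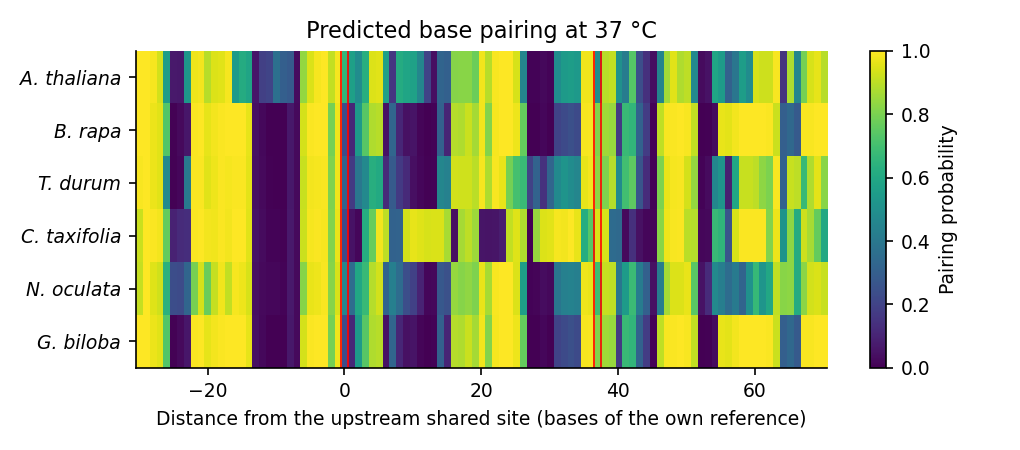
Predicted pairing probability (colour, 0 to 1) at each base from 30 bases before to 70 bases after C1940 in the 6 references, with red lines around C1940 and C1977. C1977 has the higher value in each species except A. thaliana, where C1940 is at 0.662 and C1977 at 0.493.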

How the data were processed

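The authors aligned trimmed RBS-seq reads with CLC Genomics Workbench (version not given in the sources used here) to rRNA references and deposited percent methylation per position, the cytosines divided by cytosines plus thymines. The A. thaliana percentages are the authors' mean, and other columns hold 1 library. The deposited table mixes percentages with base letters. The authors called a site at 20% or more, above a minimum read coverage. References came from databases or from an RNA-seq consensus built on the reference of a related sequence, and length and a count of m5C sites accompany them. For chloroplast 23S rRNA, the references of B. rapa, T. durum and C. taxifolia were of the consensus kind. The table gives percentages without reads per site, and beyond that minimum their depth is unknown, so no interval is given. The submitters' processing notes name TAIR 10, and coordinates given here are those of TAIR 10.1.

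Percentages were used as deposited. Paired differences within species were tested by exact two-sided sign-flip permutation (NumPy 2.4.6), which was tested on simulated data, with Benjamini-Hochberg adjustment over 5 comparisons and a threshold of 0.05. References were aligned with MAFFT 7.526 (local pairs, 100 iterations), or pairwise with Biopython 1.88 (match 2, mismatch -3, gap opening -5, gap extension -2, free end gaps). Runs shared with the mitochondrial reference were extended from the pairwise aligned base. Pairing probabilities came from the partition function of ViennaRNA 2.7.2. Every listed chloroplast 23S site is named, and sites of other rRNAs only as counterparts. The members, comparisons and lists were chosen with earlier results of these data known. Species are not replicates, and the p-values take species as units. They hold no spread between replicate libraries and take no account of how the species are related. The alternatives were other alignments, flank lengths, thresholds, scales and folding settings, and leaving out each species.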

Additional observations from a re-analysis of the deposited data

Results flagged for a closer look

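At C1977 the value of A. thaliana, 82%, stood apart from the other 5 species, which lay from 88% to 91%. Its gap to the nearest of them was 0.667 of the whole range, above the critical value of 0.625 for 6 values. Such a gap arises by chance in about 1 of 20 groups. Of 7 groups of values examined, namely C1940, C1977 and the 5 differences within species, 1 held a value that stood apart. Species are not replicates of one group, and the A. thaliana value is a mean of 3 seedling libraries whereas the others are single libraries of other tissues, so that species, tissue and library number cannot be told apart.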

How the results depend on the processing

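Of 61 alternatives, 40 had a test. Leaving out a species made up 30 of them, and all 30 kept the direction of the mean. With 5 species no exact p can be under 0.0625, so their failure to pass was fixed by the design. The other 10, on the log odds and signed rank scales, kept the direction and did not pass either. With 6 species, a pass needed most of the 5 comparisons to reach the smallest exact permutation p together. Not passing was therefore largely fixed by the design here too and says nothing about stability. Of the 21 without a test, 19 stayed within the spread or count limit. Leaving out a species could not change the count of shared sites, so those alternatives were fixed by the design. The limit for pairing was set on both sites together. From 37 C to 70 C on whole references, the median moved from 0.278 to 0.424 at C1940 and from 0.812 to 0.634 at C1977. With a threshold of 80%, 1 chloroplast 23S site (C1977) and not 2 counted as shared. With a pairwise alignment, the nearest N. oculata cytosine at the position of C1887 was 1 base away and not 2. Leaving out each species in turn, the mean difference was 6.8 to 9.6 points for C1977 against C1940, 28.0 to 46.9 for C1940 against mitochondrial C1549, 2.2 (without N. oculata) to 5.6 for C1977 against C1586, 2.5 to 4.1 against the nuclear pair and 9.6 to 21.7 against C916, the lowest being without B. rapa. On the natural log odds scale the exact permutation p was 0.0312, the smallest possible, for C1977 against C1940 and for the nuclear pair. All 6 species then had the same sign for the nuclear pair, including C. taxifolia, which went the other way on the percentage scale. Adjusted over the 5 comparisons, the exact permutation p was 0.0781 for both, also above the threshold. No paired analysis by replicate number was possible because A. thaliana alone has numbered libraries and its deposited value is their mean. Without depth, no coverage minimum could be varied and the counting error of each percentage is unknown.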
